A study of Mus musculus with 8 samples.

Results

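Transcript levels of 10 genes of the axon survival and degeneration pathway were examined in dorsal root ganglia, which house the cell bodies of the body's sensory neurons. The genes were fixed by symbol: Sarm1, Nmnat1, Nmnat2, Nmnat3, Map3k12, Map3k13, Mapk8, Mapk10, Mycbp2 and Stmn2. All 10 were found, each under 1 Ensembl identifier, among the 40800 identifiers of the deposited table. Ganglia came from 6-month-old mice, 4 wild type (C57BL/6) and 4 mutant, carrying 2 copies of a Tmem184b gene trap on that background. Such a trap cuts the transcript short, and the labels give no tissue restriction for it. Samples keep their label numbers, 1, 3, 4 and 8 for wild types and 1 to 4 for mutants, and values below follow that order. Neither sex nor litter is stated, nor whether a sample pooled ganglia.

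An injured axon dies by an active programme. The enzyme SARM1 destroys the cofactor NAD, and NMNAT2, a short-lived NAD-making enzyme carried down the axon, holds SARM1 in check. The ubiquitin ligase MYCBP2 promotes the turnover of NMNAT2. In parallel, the kinases DLK (Map3k12) and LZK (Map3k13) signal through the kinases MKK4 and MKK7 to JNK (Mapk8, Mapk9 and Mapk10), and this cascade speeds the loss of NMNAT2 and of the microtubule regulator STMN2. TMEM184B, a transmembrane protein, has itself been linked to axon degeneration, so the comparison asks whether transcripts of this pathway differ where Tmem184b transcript is largely lost.

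Libraries held 6177680 to 7975562 reads over the genes in the table. Levels are given as CPM, the reads of a gene scaled to its library total, or as the authors' moderated log2 CPM, on which all differences (mutant minus wild type) were computed. The trapped gene fell from 171 ± 8.44 CPM to 6.65 ± 1.30 CPM in mutants (SD, n = 4 each), leaving 3.89% of the wild-type level, and Tmem184b matched the genotype label in all 8 samples. On the log2 scale this was -4.64 (SE 0.113; limma adjusted p = 2.57e-12). An exact permutation test, two-sided, gave p = 0.0286, which is the minimum over 70 assignments. Neuronal markers (Rbfox3, Uchl1, Snap25, Tubb3, Elavl4, Prph, Syt1 and Nefl) were abundant in every sample, summing to 9571 to 10714 CPM for wild types against 9856 to 10993 CPM for mutants.

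None of the pathway genes tested passed. Genes entered the test with a log2 CPM above 0 in at least 4 samples. Of the 10 genes, 9 were tested and 0 had a limma adjusted p under 0.05, against 5.46% of all 15030 genes tested. An unadjusted p under 0.05 was reached by 1 of 9 (21.3% of all tested genes), and groups did not overlap for 1 of 9 (12.4% of all tested genes). Both times the gene was Nmnat1, at the higher level in mutants (7.5% of all tested genes were non-overlapping and higher in mutants, 4.92% non-overlapping and lower). The 9 differences ran from -0.11 to 0.39, with a median of 0.047 beside 0.066 over all tested genes, and 6 of the 9 were above 0, where 64.4% of all tested genes were. The limma adjusted p of the members ran from 0.152 to 0.899.

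The intervals bound the differences on the deposited scale only. For the 8 tested genes other than Nmnat1, the standard error of the log2 difference was 0.059 to 0.087, below the median of 0.119 over all tested genes. Their 95% intervals all lay between -14.9% and 20.5% change from wild type. Other scalings moved the estimates, and intervals are not given for them. Nmnat2 was at -0.20 on the log2 scale under median centring, and Mapk8 at 0.18 when samples were centred on neuronal markers. These are levels in whole ganglia, where fewer cells of a type and less RNA per cell cannot be told apart, and RNA gives no account of the proteins.

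**Figure D1:**
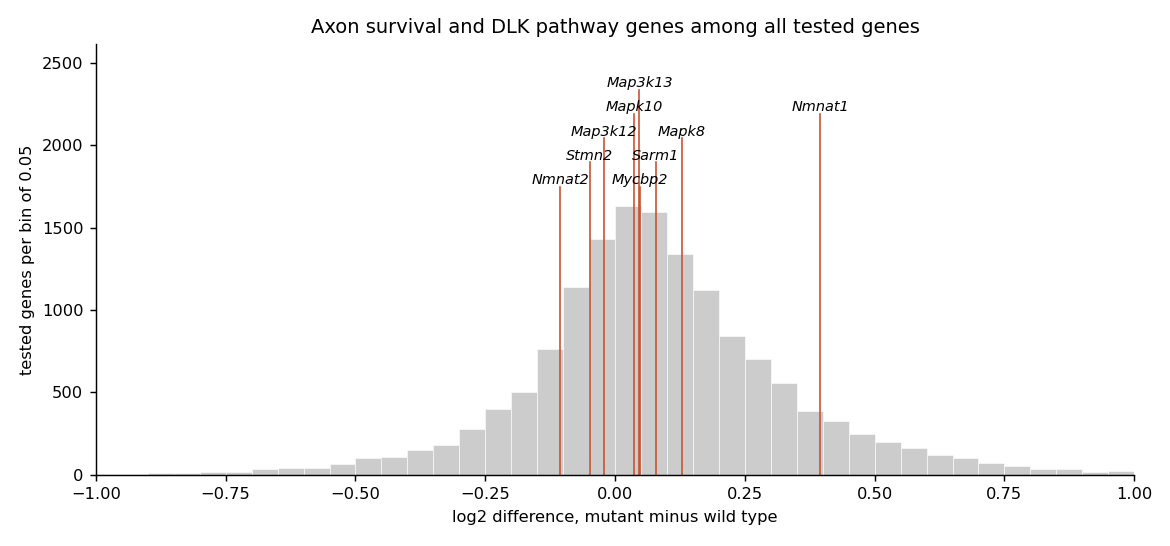
Distribution of log2 differences (mutant minus wild type, horizontal axis) over the tested genes, as the number of genes per bin of 0.05 (vertical axis), with a red line at each of the 9 tested pathway genes. Of the 9, 8 lie between -0.11 and 0.13, and Nmnat1 lies at 0.39; differences outside -1 to 1 are not drawn.

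Sarm1 (chromosome 11, 78472330 to 78497754, minus strand, GRCm38) encodes the NAD-consuming enzyme that executes axon death. Log2 CPM was 6.81, 6.74, 6.70 and 6.69 in wild types 1, 3, 4 and 8, and 6.78, 6.90, 6.88 and 6.69 in mutants 1 to 4. Mutants 2 and 3 were above every wild type, and mutant 4 was level with wild type 8, the lowest. Means were 106 ± 3.98 CPM for wild types against 112 ± 7.57 CPM for mutants (SD, n = 4), a log2 difference of 0.078 (SE 0.0625; limma adjusted p = 0.509). The 95% interval was -3.74% to 15.8%. Centring each sample on its median turned the sign, to -0.014.

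Nmnat2 (chromosome 1, 152954993 to 153119261, plus strand, GRCm38) encodes the axonal NAD-synthesising enzyme, and it carried most of the Nmnat transcript in these ganglia. Log2 CPM was 8.32, 8.41, 8.18 and 8.30 for wild types against 8.23, 8.15, 8.13 and 8.28 for mutants. Mutants 2 and 3 lay below every wild type, and the groups overlapped through wild type 4. Means were 316 ± 20.1 CPM for wild types against 293 ± 14.7 CPM for mutants (SD, n = 4), a log2 difference of -0.11 (SE 0.059; limma adjusted p = 0.326), with a 95% interval of -14.9% to 1.43%. This was the lowest difference among the 9, and it was below 0 in all 22 alternatives tried, with the limma adjusted p between 0.128 and 0.600. It was -0.20 under median centring, -0.057 when samples were centred on neuronal markers and -0.071 without wild type 3.

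Because SARM1 and NMNAT2 act against each other, their transcripts were also set side by side within each sample, which removes library scaling. The log2 ratio of Nmnat2 to Sarm1 was 1.51, 1.66, 1.48 and 1.61 for wild types against 1.45, 1.24, 1.24 and 1.59 for mutants. It averaged 1.57 ± 0.083 for wild types against 1.38 ± 0.17 for mutants (SD, n = 4). The groups overlapped, since mutant 4 lay within the wild-type range while the other 3 mutants lay below it. The ratio is given as a description, without a test.

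Nmnat1 encodes the nuclear NAD-synthesising enzyme, and it was the member that stood furthest from wild type. Its reads were 46, 68, 49 and 70 for wild types against 68, 59, 59 and 98 for mutants, from libraries of unequal depth. On the log2 CPM scale these were 2.92, 3.14, 2.92 and 3.19 for wild types against 3.39, 3.30, 3.23 and 3.84 for mutants. Every mutant was above every wild type, though mutant 3 exceeded wild type 8 by little, and mutant 4 was well above the other mutants. Means were 7.98 ± 0.818 CPM for wild types against 10.7 ± 2.25 CPM for mutants (SD, n = 4). The difference of 0.39 (SE 0.154; 95% interval 0.066 to 0.72) had an unadjusted limma p of 0.022 and did not pass after adjustment (limma adjusted p = 0.152). Without mutant 4 the difference was 0.26 (limma adjusted p = 0.392). Over the 22 alternatives it stayed above 0, between 0.26 and 0.49, and the limma adjusted p ran from 0.086 to 0.392.

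Nmnat1 lies on chromosome 4, at 149467572 to 149485202 on the minus strand in GRCm38, and shares a start region with Lzic. The annotated Lzic start lies 27 bases from the Nmnat1 start, and Lzic is read in the other direction. The 250 bases before the outer Nmnat1 start (RefSeq, GRCm38.p6, chr4:149485211-149485460, minus strand, 5′ to 3′) are shown because they lie upstream of Nmnat1 and hold the Lzic start, at 149485229, near their Nmnat1 end. Most of the stretch is thus within Lzic. Capitals mark the letters CTTCCG, the core of ETS factor sites, searched on both strands with CGGAAG. The letters CCAAT were searched in the same way, with ATTGG.

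Nmnat1 promoter: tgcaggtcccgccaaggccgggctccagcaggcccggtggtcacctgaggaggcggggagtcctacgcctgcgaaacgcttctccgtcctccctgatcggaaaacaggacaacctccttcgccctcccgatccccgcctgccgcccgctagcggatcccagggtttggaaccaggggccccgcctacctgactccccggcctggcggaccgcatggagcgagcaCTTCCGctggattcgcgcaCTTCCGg

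The stretch held 2 copies, and 13.6% of the 32851 RefSeq promoter windows of 250 bases held at least 1 on either strand. CCAAT was not among these letters, and 33.8% of windows held it. A match of letters is not a bound site, and no match says nothing of a factor. Lzic, which encodes a small protein with a beta-catenin-binding domain, was close to wild type. Its reads were 84, 66, 53 and 68 for wild types against 46, 65, 61 and 68 for mutants. Its difference was -0.042 (SE 0.181; limma adjusted p = 0.924), and the 95% interval of -0.43 to 0.35 overlaps that of Nmnat1. The difference between both genes was not tested. Lzic turned sign, to 0.0065, when samples were centred on neuronal markers.

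The genes whose levels followed Nmnat1 most closely across the 8 samples were S100b, Bcat1 and Itm2b, at Pearson r of 0.991, 0.98 and 0.979. These values are a description, and genes that differ between genotypes share that difference. S100b, which encodes a calcium-binding protein abundant in glia, was at 8.77, 8.91, 8.82 and 8.95 log2 CPM for wild types against 9.09, 9.06, 9.04 and 9.41 for mutants. Mutant 4 was highest for S100b as it was for Nmnat1. S100b was chosen from these same values for its likeness to Nmnat1. A shared high mutant 4 and a shared direction are thus no separate result. The S100b difference was 0.29 (SE 0.077; limma adjusted p = 0.0438), and it passed in 12 of 22 alternatives. It missed the threshold without wild type 1, 3 or 4 or mutant 1, 2 or 4 (limma adjusted p 0.0567 to 0.137), and was 0.20 without mutant 4. Under median centring it was 0.19 (limma adjusted p = 0.172), and without the variance trend the limma adjusted p was 0.178. The threshold was also missed with the level of Xist as a covariate (0.0628) and in the 6 samples with shared numbers without the block (0.067). Bcat1 differed by 0.21 (limma adjusted p = 0.148) and Itm2b by 0.14 (limma adjusted p = 0.210), and they passed in 0 of 22 alternatives. Under median centring they were at 0.12 and 0.043.

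Markers of other cell types are given beside this result, since some moved with genotype. Over all tested genes, 2.81% were called higher and 2.64% lower, and 21.3% had an unadjusted p under 0.05. Satellite glia markers were called higher for 1 of 5 genes (Glul), and the list summed to 1818 to 2217 CPM for wild types against 2002 to 2811 CPM for mutants. All 5 differences were above 0, where 64.4% of all tested genes were, and 3 had an unadjusted p under 0.05. Myelinating Schwann cell markers were called higher for 2 of 7 (Ncmap and Drp2), with sums of 2432 to 3186 and 2874 to 3454 CPM. Of these 7, 6 were above 0 and 3 had an unadjusted p under 0.05. Skeletal muscle markers were called for 0 of 6 tested genes of the 7, with an unadjusted p under 0.05 for 5. They summed to 3.49 to 35.1 CPM against 10.9 to 164 CPM, with the highest value in mutant 4. Ckm and Tnni2 were at 0 reads in some libraries. Fibroblast markers were called higher for 1 of 5 (Dcn) and immune markers for 1 of 5 tested (Cd163), while 1 of 8 neuronal markers (Syt1) was called lower. Neuronal markers lay on both sides of 0, 5 of 8 below it. Among those whose groups did not overlap, named after their values were seen, Rbfox3 was at -0.26 (limma adjusted p = 0.0711) and Snap25 at 0.22 (limma adjusted p = 0.0856). Without the variance trend, Glul, Dcn, Drp2, Cd163 and Syt1 missed the threshold (limma adjusted p 0.106 to 0.142). Dcn also missed it with a robust trend (0.0606), and Cd163 in the 6 samples without the block (0.086). Syt1 missed it in those 6 samples (0.0538), under quantile normalization (0.0574) and when samples were centred on neuronal markers (0.0662). With 1 sample left out, Drp2 missed the threshold without wild type 1 or 3 or mutant 1 or 4, and Cd163 without wild type 8 or mutant 1 or 4. Fibroblast sums were 524 to 963 CPM against 706 to 1012 CPM, and immune sums 30.3 to 45.0 and 37.6 to 64.8 CPM. Differences were above 0 for 5 of 5 fibroblast and 4 of 5 tested immune markers, with an unadjusted p under 0.05 for 3 and 2. Endothelial and central nervous system markers had 0 of 4 called each, with an unadjusted p under 0.05 for 1 and 2 of them. Above 0 were 2 of the 4 endothelial and 4 of the 4 central nervous system markers. Endothelial sums were 39.8 to 62.7 CPM against 43.6 to 68.9 CPM, and central nervous system sums 40.3 to 80.4 and 53.0 to 78.8 CPM, with Olig2 at 0 reads in some libraries. The part of these cell types in the Nmnat1 difference was not tested. When each sample was centred on the neuronal markers, the Nmnat1 difference was 0.44 (limma adjusted p = 0.086).

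Nmnat3 (chromosome 9, 98287435 to 98420438, plus strand), which encodes the enzyme of the family assigned to mitochondria, was near the limit of detection. It had 7, 3, 4 and 2 reads for wild types against 3, 4, 1 and 3 for mutants. A count of 3 reads, taken as the floor, corresponds to 0.376 to 0.485 CPM in these libraries. Both groups sat at about that floor, the gene did not reach the filter, and no difference was detectable at this depth.

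**Figure D2:**
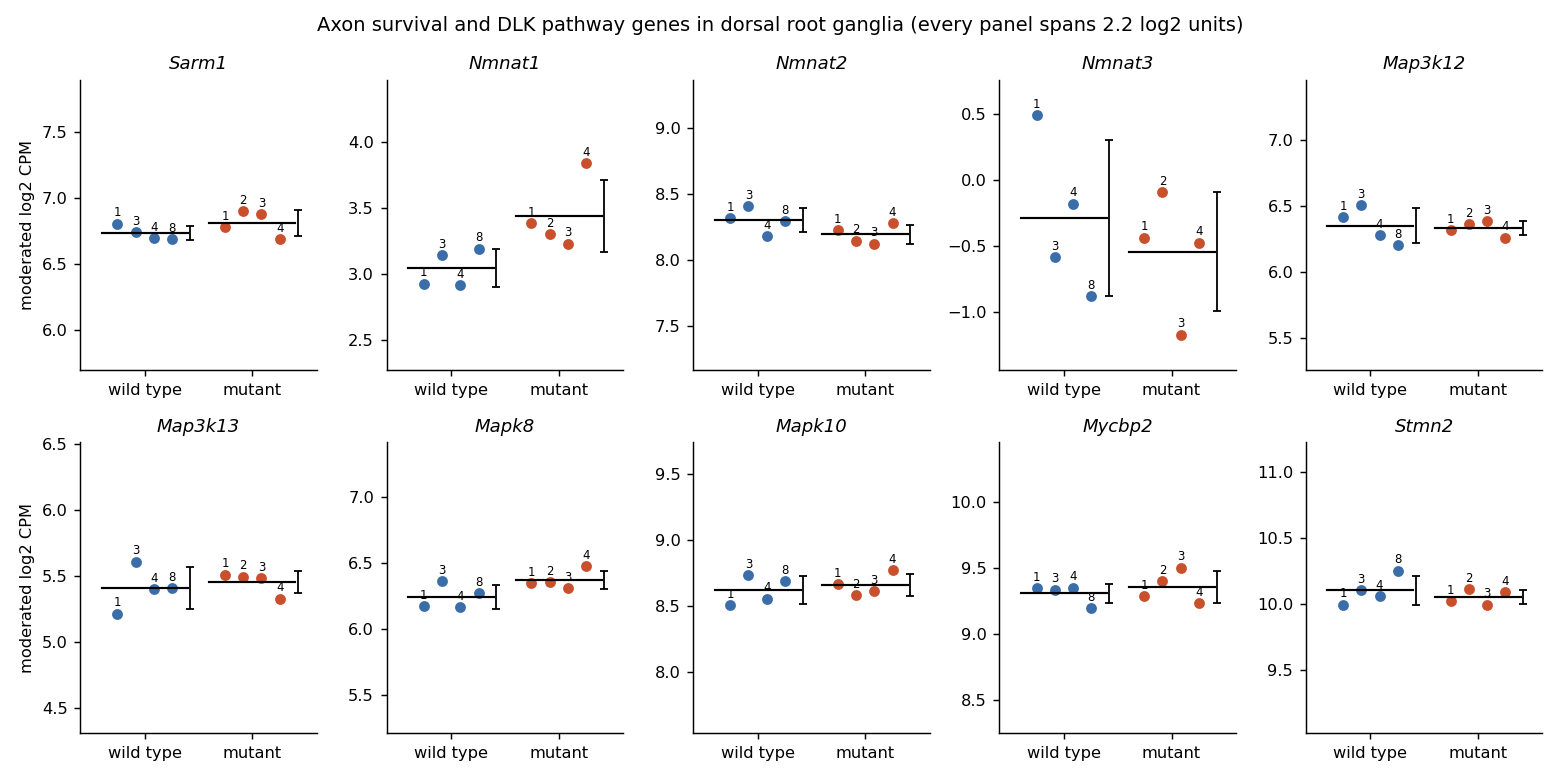
Moderated log2 CPM (vertical axes, each spanning 2.2 log2 units) of the 10 pathway genes in 4 wild-type (blue) and 4 mutant (red) ganglia, numbered by sample. Horizontal lines are means and bars SD, and Nmnat1 is the gene among the 10 whose groups do not overlap.

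Mycbp2 (chromosome 14, 103113411 to 103346814, minus strand, GRCm38) encodes the very large ubiquitin ligase that promotes NMNAT2 and DLK turnover. Log2 CPM was 9.34, 9.33, 9.35 and 9.20 for wild types against 9.29, 9.40, 9.50 and 9.23 for mutants. Wild type 8 stood below the other 3 wild types, and mutants lay on both sides of them. Means were 633 ± 31.4 CPM for wild types against 656 ± 54.9 CPM for mutants (SD, n = 4). The difference was 0.048 (SE 0.064; limma adjusted p = 0.719; 95% interval -5.96% to 13.7%), and -0.044 under median centring.

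Map3k12 encodes DLK. Log2 CPM was 6.41, 6.51, 6.28 and 6.20 for wild types against 6.31, 6.36, 6.38 and 6.26 for mutants, so that all 4 mutants lay within the wild-type range. Means were 81.5 ± 7.71 CPM for wild types against 80.1 ± 2.97 CPM for mutants (SD, n = 4), a log2 difference of -0.021 (SE 0.072; limma adjusted p = 0.899; 95% interval -11.4% to 9.58%). The sign turned, to 0.027, when samples were centred on neuronal markers. Map3k12 lies on chromosome 15, at 102497646 to 102517064 (minus strand, GRCm38), 23.1 Mb from Tmem184b. It overlaps Pcbp2, read from the other strand with 381 to 509 reads per library, over 1573 exon bases. Whether reads were assigned by strand is not given in the sources used here, so reads of this overlap may be shared.

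Map3k13 (chromosome 16, 21794346 to 21933439, plus strand, GRCm38) encodes LZK, a close relative of DLK. It shares 227 exon bases with the noncoding gene 1300002E11Rik on its own strand, which had 30 to 50 reads per library. Log2 CPM was 5.21, 5.61, 5.40 and 5.41 for wild types against 5.51, 5.49, 5.49 and 5.33 for mutants, again within the wild-type range in all 4. Means were 42.4 ± 4.77 CPM for wild types against 43.6 ± 2.50 CPM for mutants (SD, n = 4). The difference was 0.047 (SE 0.087; limma adjusted p = 0.803; 95% interval -9.15% to 17.5%), the widest interval of the genes other than Nmnat1, and it was -0.045 under median centring. The log2 ratio of Map3k12 to Map3k13 was 0.94 ± 0.18 for wild types against 0.87 ± 0.053 for mutants (SD, n = 4), with overlapping groups. Per kb of exon, Map3k12 made up 74.5% ± 2.27 of the pair for wild types against 73.7% ± 0.714 for mutants (SD, n = 4).

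Mapk8, Mapk9 and Mapk10 encode the kinases JNK1, JNK2 and JNK3, of which JNK3 is the neuron-enriched form. Mapk8 lies on chromosome 14, at 33377898 to 33447158, and Mapk10 on chromosome 5, at 102907948 to 103211334, both on the minus strand in GRCm38. Mapk8 was at 6.17, 6.36, 6.16 and 6.27 log2 CPM for wild types against 6.34, 6.35, 6.31 and 6.47 for mutants. Wild type 3 alone kept the groups from separating. Means were 75.4 ± 4.85 CPM for wild types against 82.4 ± 4.13 CPM for mutants (SD, n = 4), a log2 difference of 0.13 (SE 0.066; limma adjusted p = 0.287; 95% interval -0.897% to 20.5%). It was above 0 in all 22 alternatives, between 0.036 and 0.18, and passed in none of them, with the low end under median centring.

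Mapk10 was at 8.50, 8.73, 8.56 and 8.68 log2 CPM for wild types against 8.66, 8.58, 8.61 and 8.77 for mutants, with mutant 4 above every wild type and the others inside their range. Means were 394 ± 29.1 CPM for wild types against 404 ± 23.6 CPM for mutants (SD, n = 4). The difference was 0.037 (SE 0.063; limma adjusted p = 0.784; 95% interval -6.50% to 12.6%) and was -0.055 under median centring. Mapk9, from the wider list, differed by 0.056 (SE 0.057; limma adjusted p = 0.624) and by -0.037 under median centring.

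Within samples, the log2 ratio of Mapk8 to Mapk10 was less variable than either gene. It was -2.33, -2.37, -2.39 and -2.41 for wild types against -2.32, -2.23, -2.30 and -2.30 for mutants. All 4 mutants were above all 4 wild types, by a mean of 0.091 on the log2 scale, and the gap between wild type 1 and mutant 1 was small. Per kb of exon, Mapk8 made up 12.3% ± 0.088 of JNK transcript for wild types against 12.9% ± 0.301 for mutants, Mapk9 51.4% ± 0.68 and 51.3% ± 0.185, and Mapk10 36.3% ± 0.711 and 35.8% ± 0.202 (SD, n = 4). The ratio, 1 of 5 computed, is a description, without a test.

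Stmn2 (chromosome 3, 8509360 to 8561606, plus strand, GRCm38) encodes stathmin-2 (SCG10), a labile axonal protein whose loss marks axons committed to degenerate. It was the most abundant of the 10 genes per kb, and was at 9.99, 10.10, 10.06 and 10.25 log2 CPM for wild types against 10.02, 10.11, 9.99 and 10.09 for mutants. Wild type 8 was above all others, and the remaining samples of both groups were interleaved. Means were 1100 ± 84.8 CPM for wild types against 1062 ± 40.3 CPM for mutants (SD, n = 4), a log2 difference of -0.049 (SE 0.061; limma adjusted p = 0.694; 95% interval -11.7% to 5.76%). The sign turned, to 0.0075, under quantile normalization. Set against the mean of the 8 neuronal markers in the same sample, Stmn2 stood 0.27 ± 0.07 higher on the log2 scale for wild types against 0.27 ± 0.035 for mutants (SD, n = 4).

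Levels of the 10 genes were ordered per length, as CPM per kb of exon. In wild type Stmn2 led with 531 ± 40.9, followed by Nmnat2 with 68.3 ± 4.34, Mycbp2 with 41.6 ± 2.06 and Mapk10 with 38.3 ± 2.83 (SD, n = 4). Sarm1 had 20.6 ± 0.772, Map3k12 14.2 ± 1.35, Mapk8 12.9 ± 0.833, Map3k13 4.86 ± 0.547, Nmnat1 2.79 ± 0.286 and Nmnat3 0.235 ± 0.153. The wild-type samples of Mycbp2 and Mapk10 overlapped, as did those of Map3k12 and Mapk8, and every other neighbouring pair in this order was apart. Nmnat2 made up 95.8% ± 0.173 of the Nmnat transcript per kb for wild types against 94.2% ± 0.853 for mutants, and Nmnat1 3.91% ± 0.329 and 5.52% ± 0.842 (SD, n = 4). The log2 ratio of Nmnat2 to Nmnat1 was 5.39, 5.27, 5.27 and 5.11 for wild types against 4.84, 4.85, 4.90 and 4.44 for mutants. It did not overlap between the groups, with mutant 4 lowest. This ratio and the shares contain Nmnat1, so they are no separate result. They are given as a description, without a test.

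**Figure D3:**
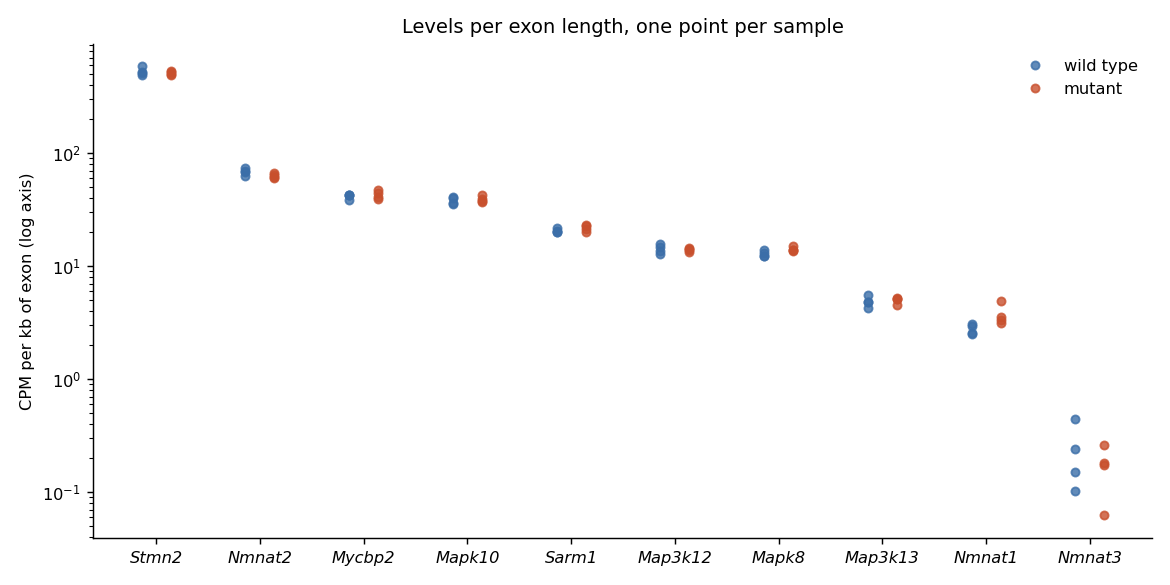
Level of each of the 10 genes as CPM per kb of exon (log axis), with 1 point for each of 4 wild-type (blue) and 4 mutant (red) samples, ordered by the wild-type mean. The order runs from Stmn2 at 531 to Nmnat3 at 0.235 CPM per kb in wild type, and the 2 genotypes overlap for every gene but Nmnat1.

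Related genes had only short exact runs in common. The longest run of identical bases between coding transcripts of any pair was 31 bases within the Nmnat genes (Nmnat1 and Nmnat2), 17 between Map3k12 and Map3k13 and 27 within the Mapk genes (Mapk8 and Mapk10). Stmn2 shared at most 43 bases with another stathmin gene, Stmn1. Reads were 150 bases long per the labels.

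The rest of the DLK and JNK cascade was read from a list of 19 further genes, all tested. Of these, 0 were called higher and 1 was called lower, Mink1 (2.81% and 2.64% of all tested genes were called higher and lower). Mink1 encodes a kinase that acts with its relatives Map4k4 and Tnik upstream of DLK and JNK in stressed neurons. It was at 8.30, 8.21, 8.37 and 8.26 log2 CPM for wild types against 8.09, 8.14, 8.03 and 7.75 for mutants. Every mutant was below every wild type, and mutant 4 was lowest. Means were 312 ± 14.6 CPM for wild types against 257 ± 29.5 CPM for mutants (SD, n = 4), a log2 difference of -0.28 (SE 0.075; limma adjusted p = 0.0413; 95% interval -26.5% to -8.18%). The call was close to the threshold and held in 11 of 22 alternatives, which all gave a difference below 0 with the limma adjusted p between 0.0165 and 0.171. It was lost without any of wild types 1, 3, 4 and 8 and mutants 1, 3 and 4, at adjusted p of 0.107, 0.0614, 0.0802, 0.0652, 0.0576, 0.0539 and 0.0657, and the difference without mutant 4 was -0.20. It was also lost in the 6 samples with shared numbers without the block (0.0601), without the variance trend (0.171), under quantile normalization (0.0902) and when samples were centred on neuronal markers (0.119).

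Tnik, named after its values were seen, differed by -0.17 (SE 0.083; limma adjusted p = 0.255), with 3 of 4 mutants below every wild type and mutant 3 above them. Map4k4 differed by -0.055 (SE 0.059; limma adjusted p = 0.643), with overlapping groups. The kinases MKK4 (Map2k4) and MKK7 (Map2k7), which link DLK to JNK, differed by 0.10 (SE 0.064; limma adjusted p = 0.376) and 0.0052 (SE 0.075; limma adjusted p = 0.978), and they were at 0.012 and -0.087 under median centring. Map2k4 was at 0.060 without wild type 1 and 0.065 without mutant 4. The JNK scaffold and axonal transport adaptor Mapk8ip3 differed by 0.085 (SE 0.052; limma adjusted p = 0.368), and by -0.007 under median centring. Dusp8, a phosphatase that switches JNK off, was named after its values were seen, because with Mink1 it made the 2 of 19 genes of this list whose groups did not overlap (12.4% of all tested genes). It differed by -0.25 (SE 0.074) and missed the threshold (limma adjusted p = 0.0644), passing under median centring alone (-0.34, limma adjusted p = 0.0273). The median difference of the 19 genes was 0.01.

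Partners of the MYCBP2 ligase were called for 0 of 5 genes, with an unadjusted p under 0.05 for 1 of them (21.3% of all tested genes). That gene, Skp1a, a subunit of ubiquitin ligases, was named after its values were seen and differed by -0.20 (SE 0.079; limma adjusted p = 0.149). Fbxo45, which encodes the F-box protein that works with MYCBP2, differed by -0.075 (SE 0.07; limma adjusted p = 0.583). The other stathmin genes were called for 0 of 3. Stmn3, nearly as abundant per kb as Stmn2 at 507 CPM per kb in wild type, differed by 0.0087 (SE 0.067; limma adjusted p = 0.960) and by -0.084 under median centring. Stmn1 and Stmn4 were minor forms and differed by -0.22 (SE 0.173; limma adjusted p = 0.497) and -0.34 (SE 0.198; limma adjusted p = 0.350). Stmn1 was at -0.045 without wild type 8 and -0.35 without wild type 4, and Stmn4 at -0.17 without mutant 1.

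**Figure D4:**
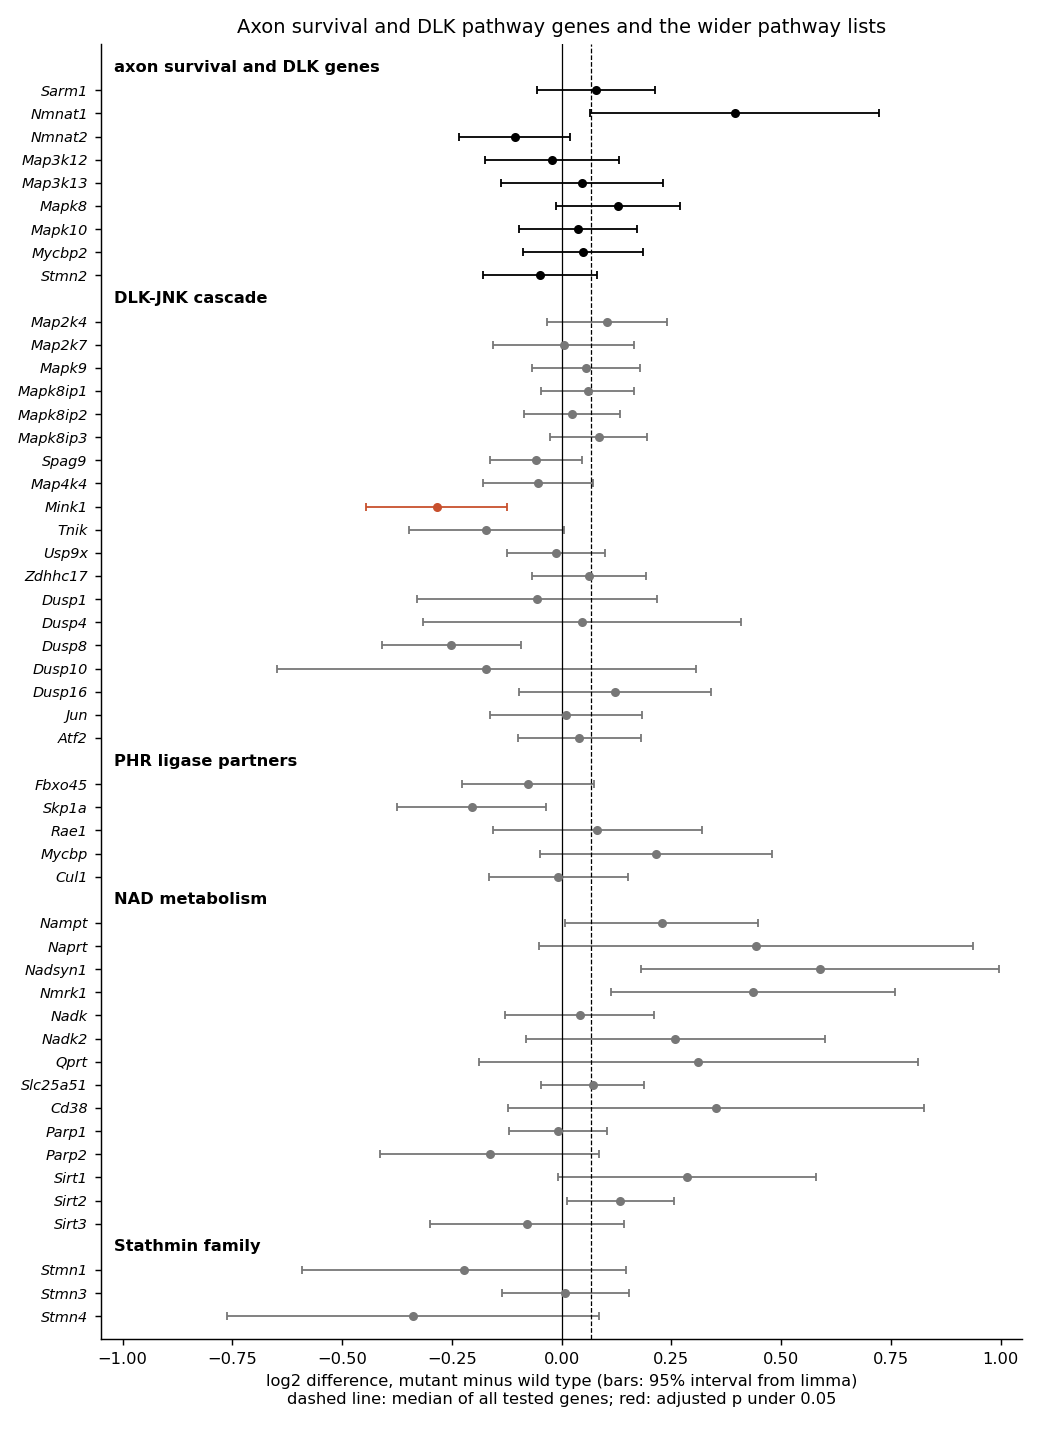
Log2 difference, mutant minus wild type (horizontal axis), with its 95% interval from limma, for the 9 tested pathway genes (black) and the tested genes of 4 wider lists (grey, red where the adjusted p is under 0.05), fitted on the values as deposited. Mink1, at -0.28, is the gene in red, and the dashed line marks the median of all tested genes at 0.066.

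Genes of NAD synthesis and use were called for 0 of the 14 tested out of 17 listed. An unadjusted p under 0.05 was reached by 4 of the 14 (21.3% of all tested genes). Of the 14, 11 were above 0, with a median of 0.24 where that of all tested genes was 0.066. Groups did not overlap for 3 of them, all higher in the mutant, where 7.5% of all tested genes were of that kind. These were Nmrk1, and Nadsyn1 and Sirt2, of which the last pair was named after the values were seen.

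Nadsyn1 encodes NAD synthetase, and it had few reads, 21, 20, 27 and 24 for wild types against 31, 28, 31 and 41 for mutants. It differed by 0.59 (SE 0.191; limma adjusted p = 0.0872). Nmrk1, which encodes a kinase that feeds nicotinamide riboside into NAD, had 33, 41, 39 and 49 reads for wild types against 45, 56, 47 and 54 for mutants. It differed by 0.44 (SE 0.152; limma adjusted p = 0.110). Both stayed above 0 in all 22 alternatives and passed in none. Nampt, the rate-limiting enzyme of the NAD salvage route, differed by 0.23 (SE 0.103; limma adjusted p = 0.213), with overlapping groups. Sirt2, a NAD-consuming deacetylase, differed by 0.13 (SE 0.057; limma adjusted p = 0.187). Under median centring Nampt was at 0.14 and Sirt2 at 0.042. Marker values of other cell types in these samples are given beside Nmnat1. Of the 5 satellite glia markers, 1 was called higher (2.81% of all tested genes) and all 5 were above 0 (64.4%). Of the 7 myelinating Schwann cell markers, 2 were called higher and 6 were above 0, and of the 5 fibroblast markers, 1 and 5. Of the 6 tested skeletal muscle markers, 0 were called and 6 were above 0, and of the 4 endothelial markers, 0 and 2. The part of these cell types here was not tested.

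**Figure D5:**
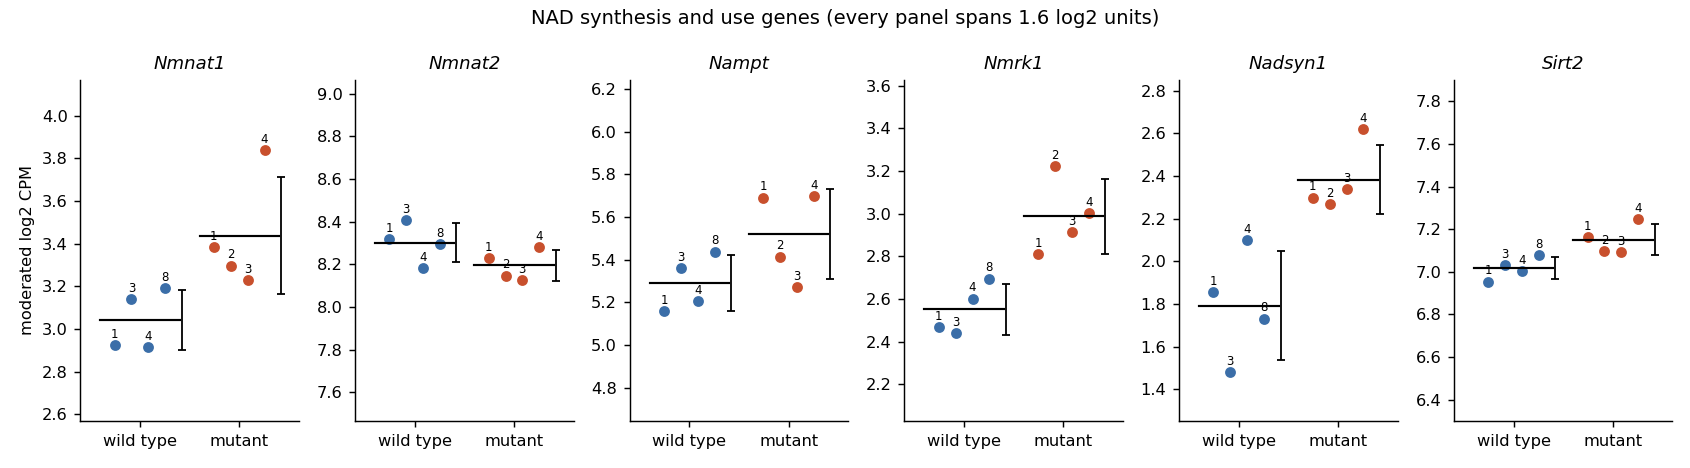
Moderated log2 CPM (vertical axes, each spanning 1.6 log2 units) of 6 genes of NAD synthesis and use in 4 wild-type (blue) and 4 mutant (red) ganglia, numbered by sample, with means (lines) and SD (bars). Nmnat1, Nmrk1, Nadsyn1 and Sirt2 do not overlap between genotypes, Nmnat2 and Nampt do, and none has an adjusted p under 0.05.

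Downstream, calpain and apoptosis genes were called for 0 of 19, with an unadjusted p under 0.05 for 4 (21.3% of all tested genes). Groups did not overlap for 5 of the 19 (12.4% of all tested genes), of which 4 were higher in the mutant (7.5%) and 1 was lower (4.92%), and all but Capn1 were named after their values were seen. Capn1, a calcium-activated protease of the axon breakdown step, differed by -0.14 (SE 0.05; limma adjusted p = 0.117). It passed under median centring alone, at -0.23 (limma adjusted p = 0.0391), and was -0.092 under quantile normalization and -0.093 when samples were centred on neuronal markers. The survival genes Bcl2 and Bcl2l1 differed by 0.20 (SE 0.071; limma adjusted p = 0.117) and 0.26 (SE 0.0855; limma adjusted p = 0.0923), the latter passing only when samples were centred on neuronal markers (0.31, limma adjusted p = 0.0473). The cell death genes Bak1 and Bcl2l11 differed by 0.37 (SE 0.142; limma adjusted p = 0.144) and 0.30 (SE 0.165; limma adjusted p = 0.316), and Bcl2l11 was at 0.17 without mutant 1 and under quantile normalization. Bak1 was at 0.24 under quantile normalization, and Bcl2 at 0.11 and Bcl2l1 at 0.17 under median centring. Of the 19 genes, 8 were below 0.

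Genes that depend on DLK for their induction after nerve injury were listed last. Of 13 listed, 12 were tested and 0 were called (5.46% of all tested genes). Their differences ran from -0.45 to 0.55 with a median of 0.036, 8 above 0 and 4 below. An unadjusted p under 0.05 was found for 1 of them (21.3% of all tested genes). That gene was Atf3, an injury-induced transcription factor, at 2.19, 2.06, 1.94 and 2.70 log2 CPM for wild types against 2.46, 2.92, 2.65 and 2.75 for mutants. It differed by 0.47 (SE 0.192; limma adjusted p = 0.167), with wild type 8 inside the mutant range. Jun, the transcription factor that JNK phosphorylates, differed by 0.01 (SE 0.081; limma adjusted p = 0.961), with a 95% interval of -0.16 to 0.18, and by -0.082 under median centring.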

How the data were processed

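RNA from dorsal root ganglia of 8 mice was sequenced as single-end reads, per the labels' protocols. The deposited file is a single table of the authors' moderated log2 CPM values, which hold, as the values show, a prior of about 2 reads. Its column names carry running numbers of unstated meaning. These are consecutive for the mutants and all below those of the wild types, so they follow genotype. Any batch in them cannot be told apart from genotype. The submitters' processing notes name Salmon 0.11.1, DESeq2 and the build mm9, without roles. The annotation and strand use are not given in the sources used here. The table's 41422 lines held 40800 identifiers, and repeats carried equal values. After the floor of -1.79 was removed on the linear scale, 100% of values below 10000 reads were whole multiples of 1 read (tolerance 0.05). The deposited GC percent per gene served 1 alternative.

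Mutant and wild type were compared with limma 3.58.1 in R 4.3.3 (lmFit, eBayes with variance trend, two-sided, no covariate) over 15030 genes with log2 CPM above 0 in at least 4 of 8 samples. P-values were adjusted by Benjamini-Hochberg, with calls under 0.05. Differences on this moderated scale understate the change of low genes. The fit was tested on simulated data. Members, lists and the naming rule were chosen with earlier results of these data known. Named were the members, Tmem184b, called list genes, listed genes acting on a member, and the 3 genes most like the member with the smallest p. Gene positions and exon lengths are from GENCODE M21 (GRCm38) by identifier, and promoter sequence is from RefSeq (8 of 10 members listed). Python 3.11.15 was used. Voom on recovered reads and a GC correction were chosen after seeing the data. Whether same-numbered samples pair was not settled. A gene among the glial markers chosen is not reported here.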

Additional observations from a re-analysis of the deposited data

Results flagged for a closer look

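Values of 7 groups out of 94, each of 4 samples, had an extreme value well apart from its nearest neighbour, and chance flags about 1 in 20 groups. In mutant 4, Map3k13 was at 5.33 log2 CPM against 5.49 to 5.51 in the other mutants, Map2k4 at 7.90 against 7.73 to 7.75 and S100b at 9.41 against 9.04 to 9.09. The log2 ratio of Nmnat2 to Nmnat1 was 4.44 in mutant 4 against 4.84 to 4.90. S100b was chosen for its likeness to Nmnat1, and this ratio contains Nmnat1. Their flags are thus not separate from the high Nmnat1 value of mutant 4. Mycbp2 was at 9.20 in wild type 8 against 9.33 to 9.35 in the other wild types. Stmn1 was at 3.09 in mutant 2, from 51 reads, against 3.32 to 3.34, and Lzic at 3.77 in wild type 1, from 84 reads, against 3.02 to 3.15.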

How the results depend on the processing

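No member was called in any of the 22 alternatives, and Tmem184b was called in all of them, between -4.75 and -4.50. Genes called higher and lower numbered 423 and 397 as reported, 204 and 706 under median centring, 678 and 243 under centring on neuronal markers, and 67 and 75 without the variance trend, and quantile normalization gave 271 higher. With the level of Xist as a covariate, 382 genes were called higher and 360 lower, and 0 members were called. Leaving out 1 sample gave 174 to 572 higher and 230 to 427 lower. The higher count moved by over 1.5 times without wild type 1 (174), wild type 3 (226), mutant 1 (183), mutant 2 (266) and mutant 4 (206), and the lower count without wild type 1 (230). The share of higher calls moves with these scalings by construction, since the median difference over tested genes, 0.066 as reported, was -0.026 under median centring and 0.115 under neuronal centring. Why fewer genes passed without the trend was not tested.

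Differences near 0 turned sign. Under median centring these were Sarm1 (-0.014), Map3k13 (-0.045), Mapk10 (-0.055), Mycbp2 (-0.044), Map2k7 (-0.087), Mapk9 (-0.037), Mapk8ip3 (-0.0070), Stmn3 (-0.084) and Jun (-0.082). Under quantile normalization they were Map3k13 (-0.0017), Stmn2 (0.0075) and Map2k7 (-0.014), and under centring on neuronal markers Map3k12 (0.027) and Lzic (0.0065). With 1 sample left out, the ranges were -0.071 to 0.031 for Map3k12, -0.017 to 0.11 for Map3k13, -0.0011 to 0.074 for Mapk10, -0.0012 to 0.089 for Mycbp2, -0.085 to 0.00076 for Stmn2, -0.042 to 0.076 for Map2k7, -0.038 to 0.058 for Stmn3, -0.062 to 0.076 for Jun and -0.12 to 0.13 for Lzic.

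Numbers 1, 3 and 4 occur in both genotypes, and whether they pair the samples was not settled. Deviations of same-numbered samples correlated at 0.081, 0.041 and 0.058, and 2 of 6 samples correlated best with their own number. The replicate block gave 326 higher and 345 lower genes, and the same 6 samples without it 180 higher and 267 lower. In those samples, with and without the block, Mycbp2 was at -0.0026, Map2k7 at -0.019 and Stmn1 at 0.016. The count models planned for recovered reads were not run, and voom was run on those reads instead. Depth limits Nmnat3 most, at 1 to 7 reads per library.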
